A study of Mus musculus with 18 samples.

Results

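The aminoacyl-tRNA synthetase genes were examined in polysome profiles of mouse embryonic stem cells (ESCs) that lack the RNA helicase DDX6. The genes were chosen by name as 19 cytosolic and 16 mitochondrial synthetases, 35 of the 51467 genes in the count table. All 35 were found, and all 35 passed the filter on low counts that left 12705 genes for testing. Wild-type (WT) ESCs and Ddx6 knockout (Ddx6 KO) ESCs were kept in medium with serum, LIF and 2i, and both genotypes were treated with 100 µg/ml cycloheximide for 2 min to hold ribosomes on their mRNAs. Lysates were spun through sucrose gradients, and RNA was taken from the monosome, from the low polysome, with 2 to 4 ribosomes, and from the high polysome, with 4 or more. There were 3 gradients of each genotype and 3 fractions of each gradient, which made 18 libraries and 6 groups. The KO cells were 2 CRISPR-Cas9 clones of one parental line, with clone 1 in KO gradient 1 and clone 2 in both others.

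Aminoacyl-tRNA synthetases join each amino acid to its tRNA and so supply the ribosome with charged tRNA. Cytosolic enzymes serve the translation of nuclear genes, while nuclear-encoded mitochondrial enzymes are imported into the organelle and serve the few mRNAs of the mitochondrial genome. Because both sets are made on cytosolic ribosomes, the polysome profile covers the mRNAs of both. It shows how an mRNA is spread over the fractions, and neither synthesis nor activity of the enzymes was measured. Catalytic domains fall into 2 unrelated folds, class I and class II, and several cytosolic enzymes assemble into a multi-synthetase complex. In mouse, Kars (lysine) and Gars (glycine) each encode both the cytosolic and the mitochondrial enzyme, and Eprs carries the activities for glutamate and proline in one protein.

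Depth ranged from 2543617 to 11474550 gene counts per library, with the lowest total in the WT monosome of gradient 1. Ddx6 itself lay between 143 and 212 CPM (counts scaled to the size of the library, with TMM factors) in WT libraries and between 9.68 and 82.7 CPM in KO libraries. The reads come from 3′ ends, so this checks the level of the mRNA and not the edited exon. All 10 pluripotency markers were tested, with summed levels of 2160 to 4260 CPM over the libraries, and the 6 fibroblast markers summed to 3.95 to 11 CPM. The 3 markers of post-implantation epiblast summed to 35.8 to 80.3 CPM in WT and to 11.7 to 26.2 CPM in KO libraries, and their part in the results was not tested.

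Several cytosolic synthetase genes are known targets of ATF4, the transcription factor of the amino acid response, so the promoter windows of RefSeq (GRCm38.p6, 250 bases before to 50 bases after the annotated start) were searched for the amino acid response element TGATGCAA on both strands. A window was searched for 25 of the 35 genes, 11 cytosolic and 14 mitochondrial, which leaves out Aars, Cars, Hars, Lars, Nars, Rars, Vars, Wars, Hars2 and Pars2. The letters occurred in 3 of the 11 cytosolic windows and in 0 of the 14 mitochondrial windows, against 1.03% of 27024 genes. The matches are shown because the 3 genes are cytosolic. In KO cells Yars and Tars rose in translation level and Iars was not called, where 12 of all 19 cytosolic genes rose. A link between the motif and translation level was not tested. Each run is written in the direction of the gene with the match in capitals. The motif starts at position 4 in Yars, 8 in Iars and -15 in Tars, where position 1 is the annotated start.
Yars: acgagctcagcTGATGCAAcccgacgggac
Iars: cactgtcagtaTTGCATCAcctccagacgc
Tars: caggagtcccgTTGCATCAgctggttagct
These runs lie at chr4:129189895-129189924 (+ strand), chr13:49682126-49682155 (+ strand) and chr15:11399655-11399684 (- strand). In Yars the motif is on the strand of the gene, and in Iars and Tars it is on the opposite strand. Of the other motifs searched, the E-box CACGTG was present in 3 cytosolic and 1 mitochondrial windows (8.09% of genes), and the NRF1 motif in 3 cytosolic and 2 mitochondrial windows (5.19% of genes). A match of letters is a description of the window and does not show that a factor binds there.

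The cytosolic set was the more abundant. Its summed level was 3080 to 3260 CPM in WT monosomes and 3720 to 4080 CPM in WT high polysomes, while the mitochondrial set summed to 506 to 520 CPM and 550 to 574 CPM in the same libraries. In KO cells the cytosolic sum was 2010 to 2280 CPM in monosomes and 4190 to 5010 CPM in high polysomes. The mitochondrial sum was 429 to 450 CPM and 663 to 713 CPM. Both sums were thus lower in every KO than in every WT monosome library and higher in every KO than in every WT high polysome library. Since each transcript is counted once at its 3′ end, levels were compared between genes without division by length. Farsa, the catalytic subunit for phenylalanine, and Nars, for asparagine, were among the most counted members, while Wars2, the mitochondrial enzyme for tryptophan, was the least counted with 15 counts in its lowest library. Among 12 amino acids with one cytosolic and one mitochondrial gene in the list, the mean CPM of the cytosolic gene ranged from 0.674 times that of its partner for isoleucine to 40.2 times for asparagine. The valine genes Vars and Vars2 had mean levels of 46.1 and 49.6 CPM.

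To ask how these mRNAs are spread over the gradient in WT cells, translation level was taken as the ratio of high polysome to monosome and tested with limma-voom, with p values adjusted by the Benjamini-Hochberg method over all genes. A gene was called at an adjusted p under 0.05. In WT cells 28.9% of all genes were called higher in the high polysome and 32.2% lower. Of the 19 cytosolic synthetases 9 were higher and 2 lower, with a median log2 ratio of 0.29. Of the 16 mitochondrial synthetases 3 were higher and 3 lower, with a median of -0.11, and the median of all genes was -0.018. The cytosolic median exceeded the mitochondrial median in each WT gradient, by 0.58, 0.26 and 0.49. Among pairs that charge the same amino acid, the cytosolic gene had the higher WT translation level in 9 of 12.

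The cytosolic genes at the top of the WT ranking were Hars, for histidine, Gars and Yars, for tyrosine. Hars measured 27.9, 39.0 and 27.8 CPM in the WT monosomes and 129, 117 and 107 CPM in the high polysomes of gradients 1 to 3. Its high polysome libraries all lay above its monosome libraries, a log2 ratio of 1.89 ± 0.15 (SE, adjusted p = 1.91e-09). Gars had a log2 ratio of 1.27 ± 0.13 (SE, adjusted p = 7.34e-08), and Yars 1.01 ± 0.15 (SE, adjusted p = 7.69e-06). Kars, which serves both compartments, was also higher (0.63 ± 0.13 SE, adjusted p = 0.000355). At the other end were Qars, for glutamine, and Vars, for valine, each with a log2 ratio of -1.03. Qars measured 351, 339 and 400 CPM in WT monosomes against 185, 154 and 197 CPM in high polysomes, and Vars measured 79.6, 80.6 and 69.8 CPM against 35.8, 34.9 and 41.5 CPM. For both genes all monosome libraries exceeded all high polysome libraries. Dars, Farsb, Rars, Tars and Wars were also called higher, with log2 ratios from 0.48 to 0.99.

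The mitochondrial genes called higher in WT were Yars2 (0.92 ± 0.15 SE), Fars2 (0.77 ± 0.21 SE) and Iars2 (0.76 ± 0.17 SE), for tyrosine, phenylalanine and isoleucine. Those called lower were Hars2 (-0.54 ± 0.14 SE), Aars2 (-0.49 ± 0.19 SE) and Tars2 (-0.42 ± 0.13 SE), for histidine, alanine and threonine. Fars2 lost its call without WT gradient 2, where its log2 ratio was 0.48. Aars2 lost its call without WT gradient 1, 2 or 3 (adjusted p = 0.0703, 0.121 and 0.16). Tars2 lost its call without WT gradient 2 or 3 (adjusted p = 0.0686 and 0.0547). Without WT gradient 1 the number of mitochondrial genes called higher was 5, and without WT gradient 2 or WT gradient 3 the number called lower was 1. All 10 cytosolic members of class II had a positive WT log2 ratio and 6 were called higher, whereas 4 of the 8 cytosolic members of class I were positive. The WT log2 ratio was positive for 49.4% of all genes. Of the 7 mitochondrial members of class II, 2 were positive and 3 were called lower. These splits by fold class are counts and carry no test of the difference.

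Next, the effect of DDX6 loss on translation level was tested as the interaction of genotype and fraction. Many synthetase mRNAs rose in translation level in KO cells, and none was called lower. Of the 35 genes 18 were raised and 0 lowered, against 10.7% of all genes raised and 7.09% lowered, and the median log2 change was 0.67 against 0.022 for all genes. At an unadjusted p under 0.05 the number lowered was 0 as well, and edgeR and DESeq2 also called 0 lowered. Of the 19 cytosolic genes 12 were raised, with a median of 0.76, and of the 16 mitochondrial genes 6 were raised, with a median of 0.61. The log2 change was positive for 18 of the 19 cytosolic and for 12 of the 16 mitochondrial genes, against 51.3% of all genes. Among the 12 amino acid pairs, the cytosolic gene had the larger change in 9. The medians of the sets differed by 0.15 on the log2 scale, and whether the sets differ was not tested.

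**Figure D1:**
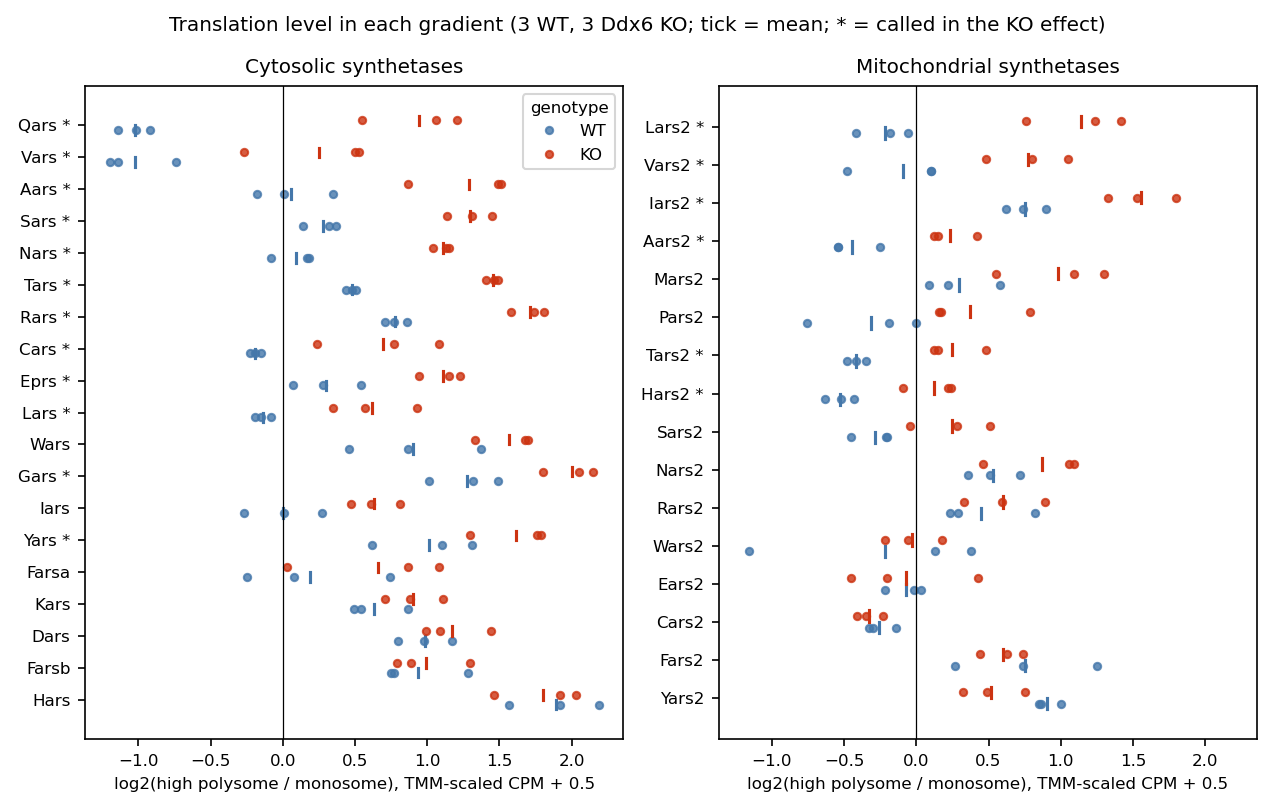
Log2 ratio of high polysome to monosome (TMM-scaled CPM + 0.5, horizontal axis) for each synthetase in each gradient, with cytosolic genes on the left and mitochondrial genes on the right, ordered by the KO effect. Points are gradients (WT blue, KO red), ticks are means of 3, and an asterisk marks genes raised at an adjusted p under 0.05; the largest separation is that of Qars, and Yars2 is the gene whose KO gradients all lie below its WT gradients.

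Qars, which charges glutamine in the multi-synthetase complex, had the largest change. It measured 174, 139 and 165 CPM in KO monosomes, below all WT monosomes, and 255, 320 and 346 CPM in KO high polysomes, above all WT high polysomes. Its log2 ratio was -0.92, -1.14 and -1.02 in WT and 0.55, 1.21 and 1.06 in KO gradients. The KO effect was 1.97 ± 0.21 (SE, adjusted p = 2.81e-05), a 3.92-fold rise. Vars, which associates with elongation factor 1, followed a similar course. Its ratio was -1.14, -1.20 and -0.74 in WT and -0.27, 0.53 and 0.50 in KO gradients, a KO effect of 1.28 ± 0.26 (SE, adjusted p = 0.00315). The pair with the lowest WT ratio among cytosolic members thus had the 2 largest KO effects of that set, and both measures use the same WT libraries.

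Aars, for alanine, had log2 ratios of 0.005, -0.18 and 0.35 in WT and of 0.87, 1.49 and 1.51 in KO gradients. The groups did not overlap, and the KO effect was 1.23 ± 0.19 (SE, adjusted p = 0.00044). Sars, for serine, had ratios of 0.32, 0.14 and 0.37 in WT and of 1.14, 1.31 and 1.45 in KO gradients, a KO effect of 1.03 ± 0.20 (SE, adjusted p = 0.00207). Nars, for asparagine, went from -0.083, 0.18 and 0.17 in WT to 1.04, 1.15 and 1.13 in KO gradients, a KO effect of 1.02 ± 0.15 (SE, adjusted p = 0.000275). Tars, for threonine, had the tightest groups, with 0.48, 0.44 and 0.51 in WT and 1.41, 1.49 and 1.46 in KO gradients, and a KO effect of 0.98 ± 0.16 (SE, adjusted p = 0.000541). Aars, Nars, Qars, Sars and Tars kept their call in all 16 other fits, at the same limit of an adjusted p under 0.05. Tars, with a KO effect under 1, did not pass a limit that also asks for a log2 change over 1.

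The other raised cytosolic genes changed by 0.62 to 0.95. Rars, for arginine, rose by 0.95 ± 0.23 (SE, adjusted p = 0.00897) and Cars, for cysteine, by 0.90 ± 0.23 (SE, adjusted p = 0.0118). Eprs rose by 0.82 ± 0.22 (SE, adjusted p = 0.0155), and Lars, the enzyme for leucine that also acts as a leucine sensor upstream of mTORC1, by 0.76 ± 0.20 (SE, adjusted p = 0.0114). Gars rose by 0.73 ± 0.19 (SE, adjusted p = 0.0116), from ratios of 1.32, 1.01 and 1.49 in WT to 1.80, 2.05 and 2.15 in KO gradients. Yars had the smallest raised change, 0.62 ± 0.21 (SE, adjusted p = 0.0464), and was the raised gene whose WT and KO gradients overlapped. Its adjusted p was 0.052 with gradient as a block, and it kept its call in 6 of the 16 other fits. Eprs kept its call in 10 of the 16, Lars in 11, Cars and Gars in 12 each, and Rars in 14.

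The other 7 cytosolic genes were not called. Wars, for tryptophan, had a KO effect of 0.73 ± 0.26 (SE, adjusted p = 0.0564) and Iars, for isoleucine, 0.63 ± 0.27 (SE, adjusted p = 0.105). Farsa and Farsb, the subunits of the phenylalanine enzyme, had values of 0.47 ± 0.34 and 0.071 ± 0.23 (SE). Kars had 0.27 ± 0.19 (SE, adjusted p = 0.332), Dars, for aspartate, 0.20 ± 0.21 (SE) and Hars -0.078 ± 0.20 (SE). Dars, Farsb, Hars, Kars and Wars of these had been called higher in WT. Of the 7 members of the multi-synthetase complex in the list, Eprs, Lars, Qars and Rars were raised, and Dars, Iars and Kars were not called. Outside the complex 8 of 12 were raised.

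Among mitochondrial genes Lars2, for leucine, changed most. It measured 15.9, 21.4 and 13.5 CPM in WT monosomes, 8.29, 13.3 and 13.2 CPM in KO monosomes, 14, 15.8 and 12.9 CPM in WT high polysomes and 23.1, 32.1 and 22.7 CPM in KO high polysomes. The high polysome values of KO lay above all those of WT, and the KO effect was 1.40 ± 0.34 (SE, adjusted p = 0.00788). Vars2, for valine, rose by 0.88 ± 0.26 (SE, adjusted p = 0.0235), and Iars2 by 0.80 ± 0.23 (SE, adjusted p = 0.0206). Iars2 went from ratios of 0.74, 0.90 and 0.62 in WT to 1.80, 1.53 and 1.33 in KO gradients. Aars2 rose by 0.73 ± 0.25 (SE, adjusted p = 0.0463), Tars2 by 0.67 ± 0.18 (SE, adjusted p = 0.014) and Hars2 by 0.66 ± 0.19 (SE, adjusted p = 0.022). None of the WT and KO gradients of these 6 genes overlapped. Aars2 lay at the threshold and kept its call in none of the 16 other fits, among them the block by gradient (adjusted p = 0.0519). Hars2 kept its call in 8 of the 16, Tars2 in 9, Iars2 in 10, Vars2 in 11 and Lars2 in 14.

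The other 10 mitochondrial genes were not called. Mars2 (methionine), Pars2 (proline) and Sars2 (serine) had KO effects of 0.71 ± 0.31, 0.67 ± 0.26 and 0.56 ± 0.25 (SE), with adjusted p of 0.118, 0.0728 and 0.117. Nars2, Rars2, Wars2 and Ears2 had values of 0.38 ± 0.35, 0.16 ± 0.28, 0.091 ± 0.51 and -0.0035 ± 0.23 (SE). Cars2 and Fars2 had -0.076 ± 0.18 and -0.15 ± 0.28 (SE). Yars2 had the lowest value of the 35, -0.39 ± 0.20 (SE, adjusted p = 0.179), from ratios of 1.0, 0.85 and 0.86 in WT to 0.75, 0.32 and 0.49 in KO gradients. Yars2 was the member whose KO gradients all lay below the WT gradients. All KO gradients lay above all WT gradients in 20 of the 35 members, 12 cytosolic and 8 mitochondrial, against 21.2% of all genes, and below them in 1 member, against 17.8% of all genes.

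The count of raised genes depended on single gradients. Without gradient 1 of WT, gradient 2 of WT or gradient 3 of KO, the cytosolic count was 7, 7 and 6. The mitochondrial count was 1, 0 and 1 without the same gradients, 2 without WT gradient 3 and 3 without KO gradient 2. Over all genes the number raised was 1357 with all gradients and 618, 609 and 466 without those 3 in turn. With all libraries thinned to equal depth, 12 cytosolic and 4 mitochondrial genes were raised. No member was called lowered in any of these fits. As a summary over gradients, the median cytosolic ratio was 0.42 ± 0.13 in WT and 1.11 ± 0.064 in KO (SD, n = 3), and the median mitochondrial ratio was -0.021 ± 0.068 in WT and 0.41 ± 0.076 in KO (SD, n = 3). The median of all genes was -0.015 ± 0.0095 in WT and 0.034 ± 0.029 in KO (SD, n = 3). In KO cells 18 of the 19 cytosolic genes had a called translation level above 0 and Vars was not called (0.25), while 8 of the 16 mitochondrial genes were called above 0 and Cars2 below 0 (-0.33). The background in KO cells was 35.0% higher and 33.6% lower.

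The next comparison took the fractions apart. In the monosome 18.6% of all genes were higher in KO and 20.1% lower. None of the 35 synthetases was called higher there by limma-voom, edgeR or DESeq2, or had a higher level at an unadjusted p under 0.05, and 12 of the 19 cytosolic genes were lower, with a median log2 difference of -0.55. Of the 16 mitochondrial genes 2 were lower, with a median of -0.28. Qars fell by 1.19 ± 0.15 (SE, adjusted p = 4.21e-06), and Cars by 1.06 ± 0.17 (SE, adjusted p = 5.16e-05). Cars measured 116, 119 and 133 CPM in WT monosomes and 70.3, 59.1 and 49.0 CPM in KO monosomes. Nars measured 449, 450 and 442 CPM in WT monosomes and 220, 218 and 211 CPM in KO monosomes, and fell by 1.05 ± 0.11 (SE, adjusted p = 3.53e-07). The gap between genotypes in Nars was far wider than the spread of either group. In bulk fractions a change in the cells that express a gene and a change in RNA per cell cannot be told apart.

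Eprs and Lars also fell in the monosome, by 1.04 ± 0.16 and 0.93 ± 0.14 (SE), as did Sars, Vars, Tars, Iars, Yars, Dars and Rars, by 0.83 to 0.45. The mitochondrial genes that fell were Pars2, by 1.09 ± 0.20 (SE, adjusted p = 0.0002), and Sars2, by 0.58 ± 0.19 (SE, adjusted p = 0.0185). Pars2 measured 22.7, 17.4 and 16.4 CPM in WT and 9.31, 9.43 and 7.05 CPM in KO monosomes, with no overlap. By fold class, 7 of the 8 cytosolic members of class I and 4 of the 10 of class II were lower. Leaving out WT gradient 2 or KO gradient 3 left 1 mitochondrial gene lower.

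In the high polysome 25.3% of all genes were higher in KO and 21.1% lower. Of the cytosolic genes 5 were higher and 0 lower (0 at an unadjusted p under 0.05 and by edgeR, 1 by DESeq2), with a median of 0.18. With the trend on coding length removed the balance turned, with 2 cytosolic genes higher and 4 lower. Of the mitochondrial genes 6 were higher and 4 lower, with a median of 0.11, and 3 were higher after the same removal. Aars2 and Aars, the mitochondrial and cytosolic enzymes for alanine, rose most, by 0.96 ± 0.16 and 0.94 ± 0.13 (SE, adjusted p = 6.87e-05 and 9.97e-06). Aars measured 148, 131 and 160 CPM in WT and 237, 311 and 297 CPM in KO high polysomes. Aars2 measured 11.7, 11.2 and 11.4 CPM in WT and 21.6, 22.1 and 23 CPM in KO high polysomes. Both genes were thus separated by genotype in this fraction with no overlap. Lars2 rose by 0.85 ± 0.21 (SE, adjusted p = 0.00228), Hars2 by 0.81 ± 0.13 (SE, adjusted p = 4.2e-05), Qars by 0.78 ± 0.15 (SE, adjusted p = 0.000282) and Iars2 by 0.64 ± 0.15 (SE, adjusted p = 0.00202). Gars, Rars, Vars, Tars2 and Vars2 rose by 0.45 to 0.51.

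The 4 mitochondrial genes that fell in the high polysome were Yars2, by 0.60 ± 0.12 (SE, adjusted p = 0.000595), Pars2, by 0.41 ± 0.17 (SE, adjusted p = 0.047), Ears2, by 0.39 ± 0.15 (SE, adjusted p = 0.045), and Cars2, by 0.34 ± 0.12 (SE, adjusted p = 0.0281). Yars2 measured 54.7, 44.5 and 48.2 CPM in WT and 34.0, 32.4 and 30.6 CPM in KO high polysomes, with all KO libraries below all WT libraries. The count of 4 fell to 1 without WT gradient 2, WT gradient 3, KO gradient 1 or KO gradient 2, so that it rests on values near the threshold. Without WT gradient 1 the cytosolic genes called were 3 higher and 2 lower, and without KO gradient 3 there were 3 higher.

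**Figure D2:**
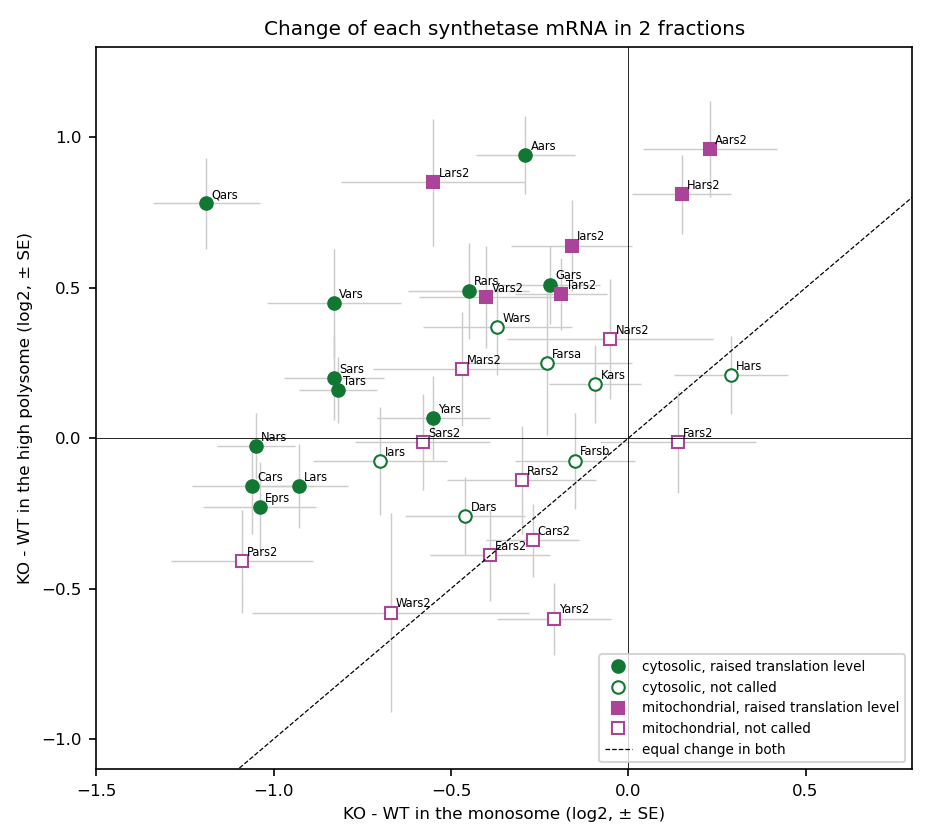
KO minus WT log2 difference in the monosome (horizontal axis) and in the high polysome (vertical axis) for each synthetase, with SE bars. Green circles are cytosolic and purple squares mitochondrial genes, filled where the translation level was raised, and the dashed line marks an equal change in both fractions; the raised cytosolic genes spread to the left, down to -1.19 for Qars, and the raised mitochondrial genes lie between 0.47 and 0.96 on the vertical axis.

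A ratio can rise through its numerator or its denominator, and the raised genes differed in which of these was called. Of the 12 raised cytosolic genes 10 were lower in the KO monosome, 5 were higher in the KO high polysome and 3 were both. Of the 6 raised mitochondrial genes 0 were lower in the monosome and 6 were higher in the high polysome. Among all 1357 raised genes 41.9% were lower in the monosome and 64.6% higher in the high polysome. Because the rise itself is computed from these fractions, the counts are a description. Cars, Eprs, Lars, Nars, Sars, Tars and Yars were lower in the monosome without a called change in the high polysome, where their log2 differences ran from -0.23 for Eprs to 0.20 for Sars. Aars and Gars were higher in the high polysome, with uncalled monosome differences of -0.29 and -0.22. Qars, Rars and Vars were called in both. Vars lost its high polysome call in several other fits, among them equal depth (adjusted p = 0.0861) and the trend on coding length removed (adjusted p = 0.608). Rars lost both calls without KO gradient 3 (adjusted p = 0.0778 in the monosome and 0.072 in the high polysome). It also lost both with that trend removed (adjusted p = 0.101 and 0.141). Its monosome call was lost in several further fits, among them equal depth (adjusted p = 0.0738). Vars2 lost its high polysome call in several other fits, among them equal depth (adjusted p = 0.128). Gars, Iars2 and Tars2 lost theirs with the trend on coding length removed (adjusted p = 0.0829, 0.0818 and 0.0946).

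**Figure D3:**
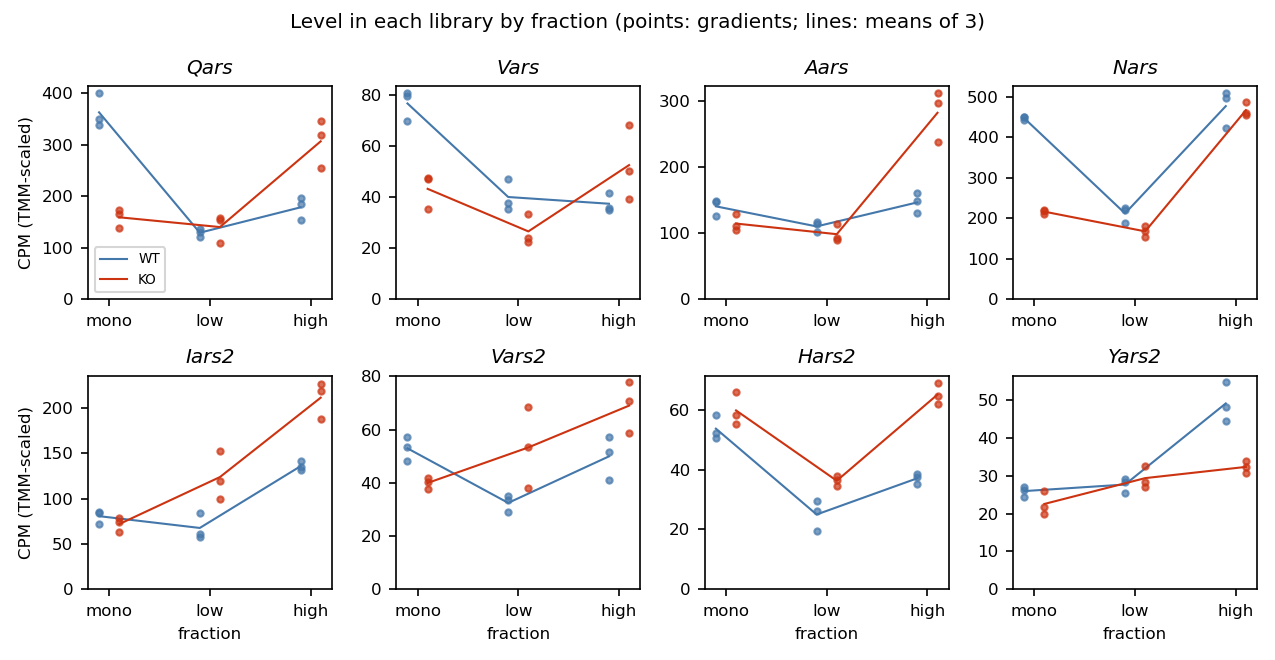
CPM (TMM-scaled, linear axis from 0) by fraction for 4 cytosolic genes (upper row) and 4 mitochondrial genes (lower row). Points are gradients and lines join means of 3 (WT blue, KO red); Qars and Nars fall in the KO monosome, Iars2, Vars2 and Hars2 rise in KO polysomes, and Yars2 falls in the KO high polysome.

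The low polysome holds mRNAs with few ribosomes. In WT cells 17 of the 35 synthetase mRNAs were called lower there than in the monosome and 1 higher, against 22.8% of all genes lower and 20.4% higher. The gene called higher was Cars2 (0.77), named after its value was seen. For the ratio of low polysome to monosome, 2.31% of all genes were raised in KO and 2.39% lowered, and 4 cytosolic and 2 mitochondrial genes were raised. None was lowered by limma-voom, edgeR or DESeq2, and the number lowered at an unadjusted p under 0.05 was 0. Qars rose by 1.29 ± 0.22 (SE, adjusted p = 0.00278), Vars2 by 1.08 ± 0.27 (SE, adjusted p = 0.0274), and Iars2 by 1.03 ± 0.23 (SE, adjusted p = 0.0183). Sars, Tars and Nars rose by 1.01 ± 0.20, 0.72 ± 0.16 and 0.71 ± 0.15 (SE). Both ratios share the monosome libraries, so they are not independent. No gene of these 6 kept its call in every other fit. Without gradient 1 of WT, gradient 2 of WT or gradient 3 of KO, the cytosolic count was 1, 2 and 0. The mitochondrial count was 0 in each of these fits, and 1 without KO gradient 2. Over all genes the number raised was 294 with all gradients and 37, 49 and 21 without those 3 in turn, and 128 without KO gradient 2.

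Within the low polysome itself, 23.4% of all genes were higher in KO and 24.3% lower. Of the cytosolic genes 1 was higher and 6 lower, and of the mitochondrial genes 5 were higher and 3 lower. Iars2 measured 60.6, 57.6 and 84.3 CPM in WT and 99.1, 153 and 119 CPM in KO low polysomes, a rise of 0.87 ± 0.16 (SE, adjusted p = 0.000162) with no overlap. Hars rose by 0.84 ± 0.15 (SE, adjusted p = 0.000106) and Fars2 by 0.75 ± 0.18 (SE, adjusted p = 0.0021), followed by Vars2 (0.68), Aars2 (0.60) and Hars2 (0.55). Lars measured 181, 208 and 232 CPM in WT and 105, 103 and 107 CPM in KO low polysomes and fell by 0.97 ± 0.14 (SE, adjusted p = 8.58e-06). Eprs fell by 0.83 ± 0.15 (SE, adjusted p = 0.000163) and Iars by 0.51 ± 0.19 (SE, adjusted p = 0.0367), and Vars, Cars and Nars also fell. Lars and Eprs were therefore lower in KO monosomes and low polysomes, and their high polysome differences of -0.16 and -0.23 were not called. The mitochondrial genes that fell were Pars2 (-0.52), Ears2 (-0.41) and Cars2 (-0.36). Their count was 0 without WT gradient 1 or KO gradient 3 and 1 without WT gradient 2 or KO gradient 1. The cytosolic genes called were 2 higher without WT gradient 3 or KO gradient 1 and 3 lower without WT gradient 3, and 3 mitochondrial genes were higher without WT gradient 2.

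Set side by side for the same amino acid, members of a pair did not always move alike. For histidine, Hars had the highest WT ratio of the list and a KO effect of -0.078, while Hars2 was lower in WT and rose by 0.66. For tyrosine, Yars rose by 0.62 and Yars2 had -0.39, with WT ratios of 1.01 and 0.92. For leucine, Lars2 rose by 1.40 and Lars by 0.76. For alanine, valine and threonine both members were raised. In the monosome the KO difference of the cytosolic gene was above that of its partner in 2 of 12 pairs, and in the high polysome in 5 of 12, with median differences of -0.40 and -0.019.

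Across all 11773 protein-coding genes tested with a coding length, the KO effect on translation level was related to that length, with a Spearman correlation of 0.542. Among the synthetases it was 0.636 (35 genes), with 0.456 for cytosolic and 0.771 for mitochondrial genes. These are correlations across genes, which share libraries, and are given as descriptions. Median coding length was 1980 nt for cytosolic and 1610 nt for mitochondrial synthetases, against 1370 nt for all protein-coding genes tested. With the trend on length removed, 5 cytosolic and 0 mitochondrial genes were raised, the 5 being Aars, Nars, Qars, Sars and Tars. Over all genes that fit called 422 of 11773 raised and 275 lowered, also fewer than the 1357 and 901 without the removal. Qars, of 2325 nt, kept a KO effect of 1.61 (adjusted p = 0.000144) after removal.

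**Figure D4:**
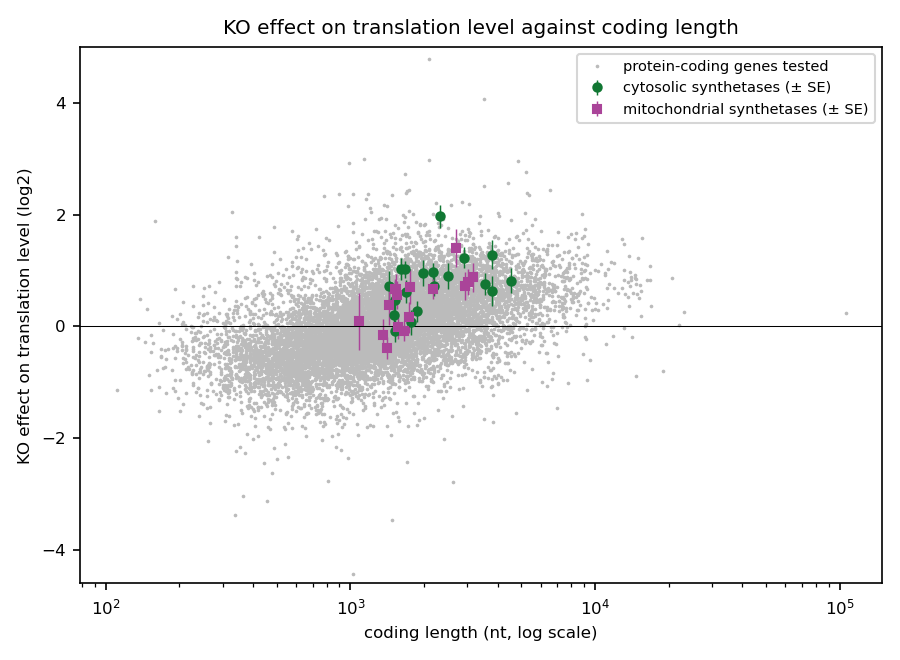
KO effect on translation level (log2, vertical axis) against coding length (nt, log horizontal axis) for protein-coding genes (grey), cytosolic synthetases (green circles) and mitochondrial synthetases (purple squares), with SE bars for synthetases. The grey cloud rises with length (Spearman correlation 0.542), most synthetases lie above 0, and Qars at 1.97 lies above the trend on length.

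Genes that work with the synthetases were followed as lists. Of the 3 scaffold proteins of the multi-synthetase complex, Aimp1 was raised in translation level in KO cells (0.63 ± 0.18 SE, adjusted p = 0.0188). The others were not called, and 10.7% of all genes were raised. Eef1e1 fell in the high polysome by 1.18 ± 0.31 (SE, adjusted p = 0.004). Of 7 genes tested for tRNA quality control and export, 2 were lowered and the others not called, against 7.09% of all genes lowered, with a median of -0.68. These were Prorsd1, a relative of editing domains that clear mischarged tRNA (-0.90 ± 0.21 SE, adjusted p = 0.00674), and Lage3, a subunit of the tRNA-modifying KEOPS complex (-0.68 ± 0.19 SE, adjusted p = 0.0197). In the high polysome 4 of the 7 were lower and 2 higher, against 21.1% and 25.3% of all genes, with a median of -0.62. The count higher is near the share of all genes. Lage3 fell there by 1.01 ± 0.14 (SE, adjusted p = 6.17e-06). Dtd1, a deacylase for D-amino acids on tRNA, rose there by 0.76 ± 0.18 (SE, adjusted p = 0.00171).

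Of 12 genes for mitochondrial charging and translation factors, 2 were raised and the others not called, near the share of 10.7% of all genes, with a median of 0.26. They were the elongation factor Gfm1 (0.75 ± 0.25 SE, adjusted p = 0.0455) and the ribosome recycling factor Gfm2 (0.99 ± 0.24 SE, adjusted p = 0.00881). In the high polysome Gfm1 rose by 1.14 ± 0.15 (SE, adjusted p = 5.98e-06), and Gatb, a subunit of the amidotransferase that makes glutaminyl-tRNA in mitochondria, fell by 0.83 ± 0.21 (SE, adjusted p = 0.0033). Of 14 genes tested of the ATF4 and amino acid response, 3 were raised and the others not called, against 10.7% of all genes, with a median of 0.34. The raised genes were Shmt2 (1.12 ± 0.26 SE, adjusted p = 0.00659) and Asns, asparagine synthetase, and Sesn2, a leucine sensor, with changes of 0.56 and 1.07. Asns, Sesn2 and Atf4 were named after their values were seen. In the high polysome 4 of the 14 were higher and 4 lower, near the shares of all genes (25.3% and 21.1%). Ddit3 rose there by 0.89 ± 0.28 (SE, adjusted p = 0.013), and Chac1, a glutathione-degrading enzyme, fell by 2.15 ± 0.23 (SE, adjusted p = 3.48e-07). In the monosome 7 of the 14 were lower, against 20.1% of all genes. Atf4 itself averaged 839 CPM in WT and 505 CPM in KO monosomes, and 398 CPM in WT and 182 CPM in KO high polysomes, so its mRNA was lower in both (adjusted p = 0.000729 and 9.14e-06), and its KO effect on translation level was not called.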

How the data were processed

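RNA from the monosome, low polysome and high polysome of 3 WT and 3 Ddx6 KO gradients was sequenced with the QuantSeq 3′ FWD kit. Per the file headers and the labels, the deposited counts are whole reads per gene. They were made by the authors with cutadapt 1.14, STAR 2.5.3a (mm10, unique alignments) and stranded featureCounts 1.5.3 on Gencode M14 basic with 92 spike-in sequences, which were left out here. Each transcript is read at its 3′ end, so counts were not divided by length. Reads shared by near-identical copies are lost, PCR copies were not removed by molecular identifiers as far as the sources state, and Farsa, Farsb, Iars, Wars and Wars2 overlap counted genes on their own strand. Symbols and coding lengths came from Gencode M21 (51274 of 51467 identifiers matched).

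Genes with at least 3 CPM in at least 3 of 18 libraries (12705 genes, 99.6% of counts) were analysed in R 4.3.3, with TMM factors from edgeR 4.0.16 and 1 mean per group, 6 in all, in a joint limma-voom fit (limma 3.58.1). All tests were two-sided with Benjamini-Hochberg adjustment over all genes. The definition of translation level, limma and its interaction term are those of the study. TMM, voom and the joint fit were chosen here. Ratios per gradient used a pseudocount of 0.5 CPM. Changes are relative to the typical gene of the same libraries. The fit was tested on simulated counts. No pair of libraries within a group agreed within sampling noise. The labels do not say that gradients were separate cultures, so p values measure the spread between gradients. KO gradients 2 and 3 both came from clone 2, so the KO spread lies partly within a clone and is not a spread between knockouts.

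The members, lists and alternatives were chosen with earlier results of these data known. The rule named every member called in the KO effect, the 3 largest called changes in each direction elsewhere, Kars, Gars and Eprs, and up to 4 genes per list with the largest called changes. Other members are named so that all 35 are accounted for. The labels do not name gradients, and the study collected the monosome, low and high polysome from each sample. Fractions with one replicate number and genotype in the labels were therefore taken as one gradient, which is the source of the pairing. Correlations of their deviations ran from -0.181 to 0.485 over 18 pairs of libraries, within the range of pairs with other numbers (-0.499 to 0.562). Overlapping ranges cannot decide whether the values show the pairing. Low and high polysomes of gradients 1 to 3 correlated at 0.319, 0.348 and 0.258 in WT and at 0.485, -0.117 and -0.181 in KO. The main fit did not use the pairing. Over all genes the median SE of the KO effect was 0.29 in the main fit and 0.267 with gradient as a block. WT and KO gradients share only a number. Alternatives were DESeq2 1.42.0 size factors, library size alone, no filter, edgeR's quasi-likelihood test, DESeq2's Wald test, only the compared groups, equal depth, the trend on coding length removed, each gradient left out, replicate blocks and a stricter threshold. A gradient was left out with all its fractions. The promoter window of Aars is not reported here.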

Additional observations from a re-analysis of the deposited data

Results flagged for a closer look

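The change from monosome to high polysome differed between WT and KO cells, by the interaction test in limma-voom (adjusted p under 0.05), for 18 synthetases. The log2 differences were 1.97 for Qars, 1.40 for Lars2, 1.28 for Vars, 1.23 for Aars, 1.03 for Sars, 1.02 for Nars, 0.98 for Tars, 0.95 for Rars, 0.90 for Cars, 0.88 for Vars2, 0.82 for Eprs, 0.80 for Iars2, 0.76 for Lars, 0.73 for Gars, 0.73 for Aars2, 0.67 for Tars2, 0.66 for Hars2 and 0.62 for Yars. Among these genes, chosen on the same ratios, the WT and KO gradients of Yars overlapped. Counts on the spike-in sequences, which no comparison used, reached 169 in the highest library, at most 0.00217% of gene counts.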

How the results depend on the processing

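Among 17, 18, 6, 14, 15 and 15 synthetases called in the WT translation level, the KO effect on translation level, the low polysome interaction, and KO against WT in monosome, low and high polysome, 14, 5, 0, 10, 5 and 6 kept their call at an adjusted p under 0.05 in each of the 16 other fits (15 within a fraction), and none reversed. The limit on size given next is not among these fits. The cause of the losses was not tested beyond the construction of each setting (such as fewer gradients, or the trend on coding length removed). For the KO effect, the 5 that kept their call were the 5 called with that trend removed. Vars kept its call in 15 of 16 other fits and lost it in that fit (adjusted p = 0.0851). Wars2, with 15 counts in its lowest library, had an SE of 0.51 for the KO effect. Whether depth had a part in the losses was not tested.

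With adjusted p under 0.05 and an absolute log2 change over 1, counts of higher cytosolic, lower cytosolic, higher mitochondrial and lower mitochondrial genes were, for WT translation level, 3, 2, 0 and 0. By that limit 5 cytosolic and 1 mitochondrial gene were raised in the KO effect, 2 cytosolic in the low polysome interaction, 4 cytosolic and 1 mitochondrial were lower in the monosome, and 0 were called in the low or high polysome. Without a filter the WT mitochondrial counts were 5 higher and 1 lower, 1 mitochondrial gene was raised in the KO effect and 1 in the low polysome interaction, and mitochondrial genes lower numbered 1, 0 and 1 in monosome, low and high polysome. With the trend on coding length removed, 5 cytosolic and 0 mitochondrial genes were raised in the KO effect, 2 and 0 in the low polysome interaction, and in the high polysome 2 cytosolic were higher, 4 cytosolic lower and 3 mitochondrial higher. DESeq2's Wald test gave 5 mitochondrial genes higher in WT and, like its size factors, 1 cytosolic gene lower in the high polysome. Mitochondrial genes lower in the high polysome numbered 2 with edgeR's quasi-likelihood test, 2 with only the compared groups and 1 at equal depth, and 0 were lower in the low polysome with only the compared groups.

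Leaving out 1 gradient gave, for WT translation level, 9 to 10 cytosolic genes higher, 2 lower, 2 to 5 mitochondrial higher and 1 to 3 lower, with medians 0.41 to 0.52 apart. It gave 6 to 13 cytosolic and 0 to 6 mitochondrial genes raised in the KO effect (medians 0.14 to 0.30 apart) and 0 to 5 and 0 to 3 in the low polysome interaction. Lower in the monosome were 9 to 12 cytosolic and 1 to 2 mitochondrial genes. In the low polysome 1 to 2 cytosolic were higher, 3 to 6 lower, 3 to 6 mitochondrial higher and 0 to 2 lower. In the high polysome 3 to 5 cytosolic were higher, 0 to 2 lower, 5 to 6 mitochondrial higher and 1 to 4 lower.

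With the replicate block by gradient, 11 cytosolic and 5 mitochondrial genes were raised in the KO effect, as Yars and Aars2 lost their call. Eprs (adjusted p = 0.0358) and Rars2 (adjusted p = 0.0154) gained a call in the WT level, and Rars (adjusted p = 0.0352) in the low polysome interaction, and no other call changed. The block by number, which WT and KO share only as a number, gave 13 and 5, and 2 mitochondrial genes lower in the high polysome. Over all genes, library size alone in place of TMM moved the median KO effect from 0.022 to -0.102, and raised genes were 60.1% of all called genes with TMM, 51.0% with DESeq2 size factors, 40.3% with library size alone and 41.8% with only the compared groups.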
